A study of Homo sapiens with 4 samples.

Results

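The 30 genes described here make cholesterol and fatty acids or control how much of them a cell makes. They were listed by name from these pathways by no measured value of their own, although results of these data were known when the list was made, and comprise 18 genes of sterol synthesis, 4 of sterol regulation and 8 of fatty acid synthesis. All 30 were among the 32991 genes listed in all 4 count tables of the series, and 20 of them had a mean level over the 4 libraries of at least 10 CPM, as did 6506 genes in all. CPM here means the unique molecular identifiers (UMIs) of a gene per 1000000 UMIs of its library. Those 20 were 11 genes of sterol synthesis, 2 of sterol regulation and 7 of fatty acid synthesis.

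Cells build cholesterol from acetyl-CoA through mevalonate, isoprenoid diphosphates, squalene and lanosterol, and build fatty acids from the same acetyl-CoA through malonyl-CoA. The transcription factors SREBP1 and SREBP2, encoded by SREBF1 and SREBF2, activate most of these genes. They are held in the endoplasmic reticulum by INSIG proteins while sterol is plentiful, and are cut free and enter the nucleus when sterol falls. INSIG1 and STARD4 are themselves targets of this system, so that their mRNA is often read together with that of the enzymes.

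Single-cell RNA-seq libraries were made from A375, an established human melanoma cell line with the BRAF V600E mutation, and all 4 conditions were cultured with 10% serum. S cells received no inhibitor. RV cells had been kept with the BRAF inhibitor vemurafenib, RVC cells with vemurafenib and the MEK inhibitor cobimetinib, and RVT cells with vemurafenib and the MEK inhibitor trametinib. Exposure lasted 10 to 14 days and the inhibitors were withdrawn 24 h before the cells were captured, so that the libraries show cells after the drugs rather than cells in their presence. There was 1 library per condition and no replicate, so no test between conditions was possible. All intervals are at 95% and cover counting error only, and every comparison is between libraries, not between conditions.

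After filtering, the libraries held 6334 cells (S), 4177 (RV), 7628 (RVC) and 8446 (RVT), with 25390117 to 58519152 UMIs. The median cell held 8799.5 UMIs in S and 11553 in RV, with 3958 in RVC and 2864 in RVT, and the median share of mitochondrial UMIs ran from 3.06% to 5.77%. From 38 to 149 cell barcodes were shared by a pair of libraries. The tables of S and RV list another set of gene identifiers than those of RVC and RVT, with 703 identifiers found in S and RV alone and 547 in RVC and RVT alone, so that in a comparison of RVC or RVT with S the drug combination and the way the table was made cannot be told apart. RV over S and RVT over RVC compare libraries with the same gene list.

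The melanoma label was checked against marker genes. SOX10, a transcription factor of the melanocyte lineage, was at 86.5 CPM in S, 39.9 in RV and 19.7 in RVT, and at 0 in RVC, where a count of 0 allows up to 0.0910 CPM. ERBB3, a receptor of the same lineage, was at 65.7 in S and 14.0 in RV, with 0.303 in RVC and 0.630 in RVT. S100B was at 32.8, 6.96, 0 and 0.236 in that order. MITF, the lineage factor above the pigment genes, lay between 8.13 in RVC and 41.9 in RVT. The pigment genes MLANA, TYR, DCT and PMEL were below 0.5 in all 4 libraries, and TYRP1 was at 0.0684, 0.0191, 4.73 and 1.73. The sum of the 9 lineage markers was 195, 81.4, 13.3 and 64.5 CPM. AXL, a receptor tyrosine kinase high in melanoma cells of low differentiation, was at 94.7 in S and 170 in RV, with 78.5 in RVC and 98.3 in RVT. Of the other markers of low differentiation, NGFR was at 1.09, 11.3, 0.455 and 0, and EGFR at 4.29, 10.9, 7.37 and 14.3 in S, RV, RVC and RVT. Of 5 fibroblast markers, 3 had a UMI in S and in RV, whereas 5 had one in RVC and 4 in RVT, and their sum was 0.513, 0.724, 161 and 35.8 CPM in S, RV, RVC and RVT. COL3A1, a fibrillar collagen, held 121 of the sum in RVC. The sums of the leukocyte, epithelium and endothelium markers lay between 0.0394 and 1.33, with PTPRC, CD3E and CDH1 at 0 in every library. The library labelled RVC thus lacked SOX10 and S100B and held COL3A1, which was at 0 in S and RV. RVT kept SOX10 but had COL3A1 at 7.48 CPM. LUM, another fibroblast marker, was at 22.1 in RVT and 22.6 in RVC, against 0.103 in S. Whether RVC or RVT holds the same A375 cells as the other libraries was not tested. Each ratio that uses RVC below is that of the library so labelled. The part of these marker differences in the results on RVC and RVT was not tested. The ratios of RV and RVT to S do not use the RVC library, but the minimum of 10 CPM does, since it is set on the mean of all 4.

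Promoter sequences are shown for 5 genes: INSIG1 and STARD4, the SREBP targets highest in RV relative to S, MSMO1 and HMGCS1, the enzymes highest in RVT relative to S, and SREBF2, the only gene whose window held the sterol element searched for. Each line gives the 250 bases before the transcription start from RefSeq (GRCh38.p14), on the strand of the gene. Where RefSeq gives several starts, as for HMGCS1, the window with most motifs is printed. Capitals mark the NF-Y box, CCAAT or its reverse complement, and in SREBF2 also the sterol element. INSIG1 lies on the plus strand at chr7:155297628-155297877, STARD4 on the minus strand at chr5:111512536-111512785, MSMO1 on the plus strand at chr4:165327419-165327668, HMGCS1 on the minus strand at chr5:43313413-43313662 and SREBF2 on the plus strand at chr22:41832855-41833104.
INSIG1: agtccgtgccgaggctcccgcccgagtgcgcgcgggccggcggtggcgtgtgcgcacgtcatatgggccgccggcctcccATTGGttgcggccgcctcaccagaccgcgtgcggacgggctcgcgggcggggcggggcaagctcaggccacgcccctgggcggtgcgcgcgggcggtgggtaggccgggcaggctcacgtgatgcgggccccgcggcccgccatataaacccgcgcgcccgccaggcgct
STARD4: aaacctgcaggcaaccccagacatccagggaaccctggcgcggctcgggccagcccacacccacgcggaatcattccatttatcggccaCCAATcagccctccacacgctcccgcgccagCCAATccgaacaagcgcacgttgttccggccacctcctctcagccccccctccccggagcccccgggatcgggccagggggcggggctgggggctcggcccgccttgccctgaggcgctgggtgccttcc
MSMO1: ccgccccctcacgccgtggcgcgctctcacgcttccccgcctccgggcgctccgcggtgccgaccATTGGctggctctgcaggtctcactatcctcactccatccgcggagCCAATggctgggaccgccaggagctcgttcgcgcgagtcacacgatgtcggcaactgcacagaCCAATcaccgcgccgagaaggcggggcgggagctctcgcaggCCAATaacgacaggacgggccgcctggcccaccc
HMGCS1: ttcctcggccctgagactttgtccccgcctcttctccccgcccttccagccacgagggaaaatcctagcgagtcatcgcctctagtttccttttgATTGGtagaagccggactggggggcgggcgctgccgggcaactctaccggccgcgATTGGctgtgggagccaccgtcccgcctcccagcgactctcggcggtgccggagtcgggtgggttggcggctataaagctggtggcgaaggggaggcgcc
SREBF2: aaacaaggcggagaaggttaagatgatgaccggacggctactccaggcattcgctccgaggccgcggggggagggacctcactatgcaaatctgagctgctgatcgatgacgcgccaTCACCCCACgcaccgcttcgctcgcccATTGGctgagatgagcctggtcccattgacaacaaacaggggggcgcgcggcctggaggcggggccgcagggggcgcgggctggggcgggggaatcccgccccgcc

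Promoter windows of 250 bases before to 50 after each start were found for 26 of the 30 genes, those of FASN, SQLE, ACAT2 and FDFT1 being missing. They were searched on both strands for the NF-Y box CCAAT, the GC box GGGCGG and the sterol regulatory element TCACNCCAC, which can share bases at their ends but cannot contain one another. The NF-Y box stood in at least 1 window of 21 of the 26 genes (80.8%), of 39.7% of all 27305 genes with a window, and of 44.3% of the 5274 with a window and at least 10 CPM. The GC box stood in 25 of the 26 (96.2%), against 48.3% of all and 78.1% of those with 10 CPM. The sterol element stood in 1 of the 26, SREBF2, against 1.39% of all. Genes with several starts have more windows in which a motif can fall. A match is a match of letters and does not show a bound site, and the lack of one says only that these letters are not in this window.

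The comparison of RV with S asks how cells kept with vemurafenib alone differ from untreated cells. The sterol and fatty acid genes were slightly higher in RV almost throughout, with the largest ratios in sterol regulation. Of the 30 genes, 27 had a ratio above 0 on the log2 scale (16 of 18 in sterol synthesis, 4 of 4 in sterol regulation and 7 of 8 in fatty acid synthesis), where 53.2% of the 6506 genes tested did. With scaling by trimmed mean of M values (TMM) 25 were above 0. The median log2 ratio of the 30 was 0.30, against 0.02 over all genes tested. Only 20 of the 30 are themselves among the genes tested, here and in the comparisons below. Of the 20 that reached 10 CPM, 2 were at least 2-fold higher, INSIG1 and MSMO1, and 0 at least 2-fold lower, where 1.91% of all genes tested were at least 2-fold higher and 1.25% lower. MSMO1 passed the minimum through its level in RVT, so the count is no support for a difference in RV. When the minimum was set on the mean of RV and S alone, a choice made after seeing the data, 17 of the 30 were counted and 1, INSIG1, was at least 2-fold higher, where 2.11% of all genes so counted were. The genes share a library and a pathway and are not independent of each other.

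**Figure D1:**
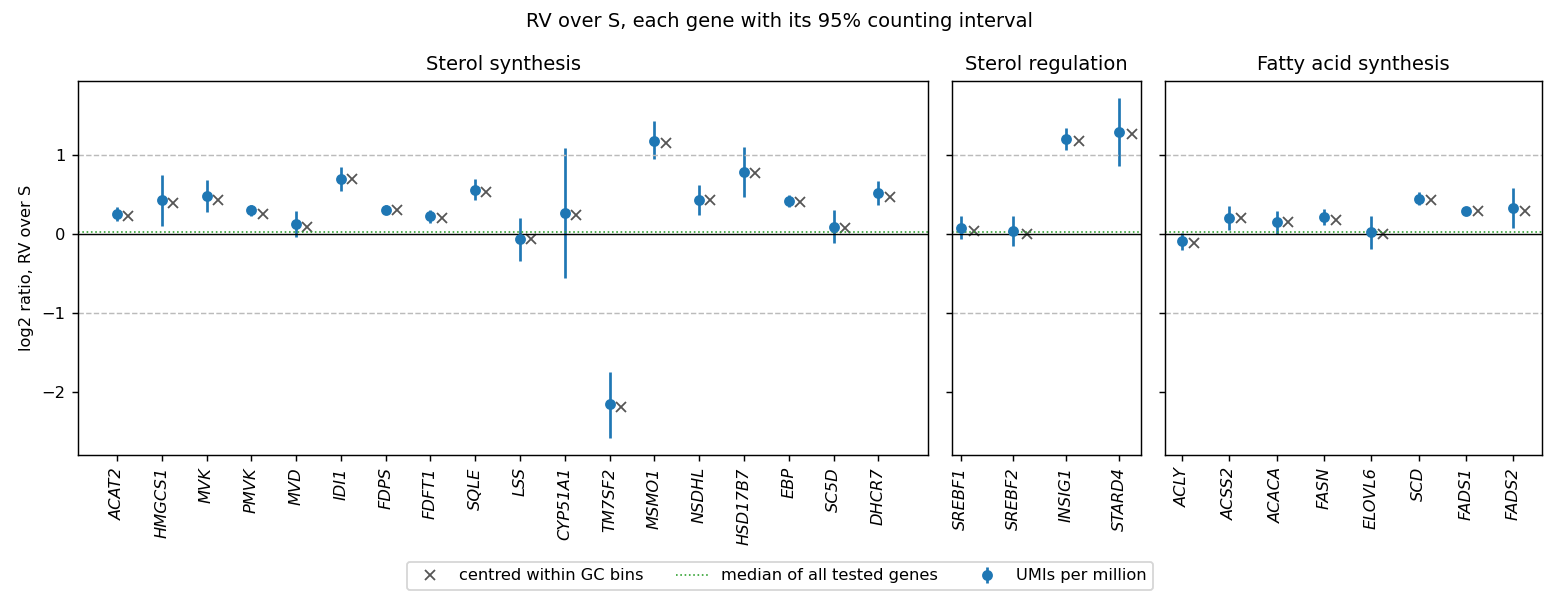
Log2 ratio of CPM in RV over S (vertical axis) for the 30 genes in 3 panels by role, with 95% counting intervals. Crosses give the ratio centred within bins of transcript GC content, the dotted line the median of all genes tested and the dashed lines a 2-fold difference. All but ACLY, LSS and TM7SF2 lie above 0, and INSIG1, STARD4 and MSMO1 lie highest, between 1.18 and 1.29.

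INSIG1 (ENSG00000186480), which retains SREBPs in the endoplasmic reticulum, was at 10.8 CPM in S and 24.9 in RV, with 11.3 in RVC and 14.1 in RVT. The RV library stood apart from the other three, and its log2 ratio to S was 1.20 (1.06 to 1.34), or 2.30-fold. STARD4, a carrier of cholesterol between membranes, was at 1.16 in S and 2.84 in RV, with 6.55 in RVC and 7.72 in RVT. Its log2 ratio of RV to S was 1.29 (0.87 to 1.73), but its mean level was under 10 CPM. SREBF2 was at 8.03 in S and 8.27 in RV and SREBF1 at 14.2 and 15.1, and the intervals of both ratios held 0. The mRNA of the factors themselves was thus at nearly the same level in these libraries in which INSIG1 differed.

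Among the enzymes of RV, MSMO1, the methylsterol oxidase that starts demethylation of lanosterol products at the fourth carbon, was at 8.31 CPM against 3.66 in S, with a log2 ratio of 1.18 (0.95 to 1.43). The interval of MSMO1 reached below the 2-fold mark. HSD17B7, a ketosteroid reductase of the same demethylation, had a log2 ratio of 0.78 (0.46 to 1.10). IDI1, the isomerase of isopentenyl diphosphate, was at 9.72 in S and 15.7 in RV, with a log2 ratio of 0.70 (0.54 to 0.85). SQLE, the squalene epoxidase, was at 14.2 and 21.0, a log2 ratio of 0.56 (0.43 to 0.69). DHCR7, which makes cholesterol from its last precursor, was at 10.2 and 14.6, a log2 ratio of 0.52 (0.36 to 0.68). None of these 3 enzymes reached 2-fold, and their intervals lay above 0.

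TM7SF2, a sterol reductase, went the other way. It was at 5.01 CPM in S and 1.12 in RV, with 0.758 in RVC and 0.670 in RVT, so that S alone stood high, and the log2 ratio of RV to S was -2.15 (-2.58 to -1.75). After centring by GC content the log2 ratio to S was -2.19 in RV but -0.88 in RVC and -0.78 in RVT, so that RV alone stayed past 2-fold. TM7SF2 was below 10 CPM and overlaps VPS51 on the same strand, so that reads of these neighbours may not be told apart. LSS, the lanosterol synthase, was at 4.26 in S and 4.06 in RV, with an interval of the log2 ratio from -0.34 to 0.20.

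Of the fatty acid genes in RV, SCD, the desaturase that makes oleate, had the largest log2 ratio to S, 0.45 (0.37 to 0.53), at 41.2 CPM in S and 56.3 in RV. FADS1, a desaturase of polyunsaturated fatty acids, was at 117 and 144. FASN, the fatty acid synthase, was at 26.9 and 31.1. ACLY, which makes cytosolic acetyl-CoA from citrate, was at 26.5 and 24.9, and the interval of its ratio held 0. No gene of this group reached 2-fold in RV. The summed level of fatty acid synthesis was 248 CPM in S and 297 in RV, a log2 ratio of 0.26 (0.23 to 0.29), and that of sterol synthesis was 339 and 427, a log2 ratio of 0.33 (0.30 to 0.36).

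**Figure D2:**
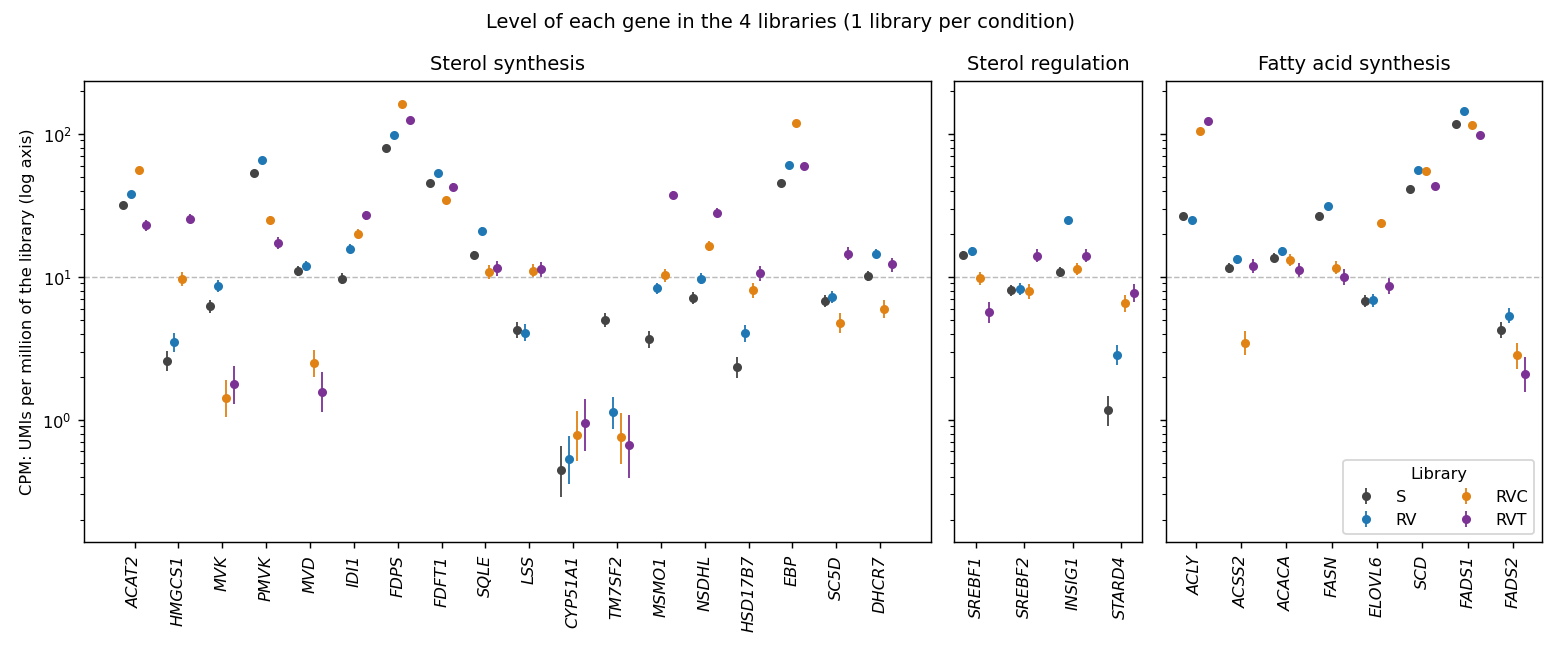
CPM (vertical, log axis) for each of the 30 genes in S, RV, RVC and RVT, in 3 panels by role. Points are the 4 libraries, bars are exact 95% Poisson intervals, which cover counting error only, and the dashed line marks 10 CPM. HMGCS1 and MSMO1 are highest in RVT, EBP and ELOVL6 in RVC, and INSIG1 in RV.

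The comparisons of RVC and RVT with S ask how cells kept with both a BRAF and a MEK inhibitor differ from untreated cells. Both combinations showed a mixed pattern, with genes of the same pathway far apart in either direction. In RVC, 8 of the 20 genes with 10 CPM were at least 2-fold higher than in S and 3 at least 2-fold lower, where 22.5% of all genes tested were higher and 23.3% lower. The 8 became 5 and the 3 became 1 when ratios were centred by GC content as described below, which left 16.6% of all genes tested higher and 23.2% lower, and the 8 became 5 when the ratios of the same genes were scaled by TMM. In RVT, 5 were at least 2-fold higher and 3 lower, where 28.7% and 24.3% of all genes tested were. After centring by GC content 5 were higher and 1 lower, where 21.6% of all genes tested were higher and 24.1% lower. The 1 was SQLE, at a log2 ratio of -1.08, and none of the 3 stayed at least 2-fold lower. HMGCS1 and MSMO1 passed the minimum through RVT and ELOVL6 through RVC, where each is high. With a minimum on the mean of the compared pair alone, 6 of 16 genes were higher and 2 lower in RVC. Of all genes so counted in RVC, 23.0% were higher and 23.4% lower. In RVT 6 of 20 were higher and 2 lower, where 31.0% and 23.3% of all genes so counted were. IDI1, NSDHL and ELOVL6 were under 10 CPM in S and passed that minimum in RVC over S only through RVC. HMGCS1, IDI1, MSMO1, NSDHL and SC5D passed it in RVT over S only through RVT. The 2-fold counts in RVC and RVT are therefore a description and no support for a difference. Of all 30 genes, 15 had a log2 ratio above 0 in RVC and 18 in RVT, where 54.5% and 55.4% of all genes tested did. With TMM scaling these became 14 and 12. RVC and RVT share the S library as their control. The counts in RVT lay near the background, and the description therefore turns to single genes.

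The summed sterol synthesis genes were at 500 CPM in RVC and 451 in RVT, a log2 ratio to S of 0.56 (0.53 to 0.59) in RVC and of 0.41 (0.38 to 0.44) in RVT, the latter turning to -0.10 with TMM scaling. The summed fatty acid genes were at 328 and 308, with log2 ratios of 0.41 in RVC and 0.31 in RVT, the latter turning to -0.20 with TMM scaling. The summed sterol regulation genes were at 35.6 and 41.6, with log2 ratios of 0.06 and 0.28, which turned to -0.16 and -0.24. TMM scaling moved the median log2 ratio of all genes tested from 0.16 to -0.05 in RVC over S, from 0.21 to -0.30 in RVT over S and from 0.16 to -0.15 in RVT over RVC. The direction of whole groups in RVT thus depended on the scaling.

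HMGCS1, the synthase that makes the substrate of mevalonate formation, was at 2.60 CPM in S and 3.49 in RV, with 9.64 in RVC and 25.6 in RVT. It was lowest in S and highest in RVT, with a log2 ratio of RVT to S of 3.30 (3.04 to 3.57) and of RVC to S of 1.89 (1.61 to 2.18). MSMO1 was at 10.2 in RVC and 37.7 in RVT, and its log2 ratio of RVT to S was 3.36 (3.15 to 3.58), or 10.3-fold. The levels of MSMO1 in the 4 libraries lay in the same order as those of HMGCS1. Their promoters are among those shown above. NSDHL, which works with MSMO1 in removing methyl groups, was at 7.16 in S and 9.68 in RV, with 16.4 in RVC and 28.1 in RVT. HSD17B7 was at 2.34, 4.02, 8.04 and 10.6 in the same libraries. The 3 enzymes of this demethylation step thus kept 1 order of libraries in CPM, S, RV, RVC and RVT, and so did IDI1, at 20.1 in RVC and 26.9 in RVT. After centring by GC content RV and RVC changed places for MSMO1, with log2 ratios to S of 1.16 and 0.89, and for IDI1, with 0.69 and 0.65.

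ACAT2, the thiolase at the entry of the pathway, was at 32.0 CPM in S and 38.2 in RV, with 55.9 in RVC and 22.9 in RVT. EBP, a sterol isomerase, was at 45.7, 61.0, 120 and 59.8 in S, RV, RVC and RVT, with a log2 ratio of RVC to S of 1.39 (1.32 to 1.46). FDPS, the farnesyl diphosphate synthase, was at 79.2, 98.1, 163 and 126, with a log2 ratio of RVC to S of 1.04 (0.98 to 1.10). These 3 genes were highest in RVC. FDFT1, the squalene synthase, was at 45.7, 53.3, 34.3 and 42.6, with no 2-fold difference. SQLE was at 10.8 in RVC and 11.5 in RVT, below S and RV. After centring by GC content the log2 ratios of SQLE to S were -0.98 in RVC and -1.08 in RVT. LSS was at 11.0 in RVC and 11.3 in RVT, above S and RV, with a log2 ratio of RVT to S of 1.41 (1.16 to 1.66). SC5D, the desaturase before DHCR7, was at 6.77, 7.22, 4.79 and 14.5, and DHCR7 was at 5.94 in RVC and 12.2 in RVT. CYP51A1, which demethylates lanosterol, lay between 0.444 and 0.945 in all 4 libraries and was too low to order them.

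MVK, PMVK and MVD, the 2 kinases and the decarboxylase that turn mevalonate into isopentenyl diphosphate, are GC-rich and had fewer CPM in both combinations. MVK was at 6.22 CPM in S and 8.65 in RV, with 1.43 in RVC and 1.77 in RVT. PMVK was at 53.4, 65.7, 25.1 and 17.2 in the same order, with a log2 ratio of RVT to S of -1.63 (-1.78 to -1.49). MVD was at 11.0, 12.0, 2.49 and 1.58. In CPM the S and RV libraries lay above the RVC and RVT libraries for all 3. After centring by GC content the log2 ratios to S of MVD were -0.30 in RVC and -0.67 in RVT, those of MVK -0.28 and 0.32, and those of PMVK -0.69 and -0.99, so that none reached 2-fold.

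In fatty acid synthesis, ACLY was at 26.5 CPM in S and 24.9 in RV, with 104 in RVC and 123 in RVT. Its log2 ratio to S was 1.97 (1.89 to 2.06) in RVC and 2.22 (2.13 to 2.30) in RVT, and the S and RV libraries lay well apart from the other two. ACSS2, which makes acetyl-CoA from acetate, was at 11.5, 13.3, 3.46 and 11.9, so that RVC alone stood low, with a log2 ratio to S of -1.74 (-2.04 to -1.45). ELOVL6, the elongase of saturated fatty acids, was at 6.78, 6.88, 23.8 and 8.66, so that RVC alone stood high, with a log2 ratio of 1.81 (1.63 to 1.99). ACACA, the acetyl-CoA carboxylase, lay between 11.1 and 15.1 and SCD between 41.2 and 56.3 over the 4 libraries. FADS1 lay between 97.7 and 144. None of these 3 reached a 2-fold difference. FASN was at 11.6 in RVC and 9.96 in RVT, a log2 ratio to S of -1.21 and -1.43, both of which turned positive when centred by GC content. FADS2, the desaturase that acts before FADS1, was at 4.26, 5.36, 2.82 and 2.09. It overlaps FEN1 on the same strand, which leaves its reads uncertain.

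SREBF1 was at 14.2 CPM in S and 15.1 in RV, with 9.77 in RVC and 5.67 in RVT, with a log2 ratio of RVT to S of -1.33 (-1.59 to -1.07). SREBF2 was at 8.03, 8.27, 7.95 and 14.1, with a log2 ratio of RVT to S of 0.81 (0.61 to 1.01). That ratio was 1.45 after centring by GC content and 0.30 with TMM scaling. The mRNAs of the SREBP genes thus stood in opposite directions in the RVT library. STARD4 had a log2 ratio to S of 2.49 (2.10 to 2.91) in RVC and 2.73 (2.33 to 3.15) in RVT, whereas that of INSIG1 was 0.07 (-0.12 to 0.26) and 0.38 (0.19 to 0.57).

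The ratios to S followed the GC content of the transcripts. Over the 6506 genes tested, Spearman's rho of the log2 ratio with the GC content at the transcript end (500 bases of the longest transcript) was -0.35 in RVC and -0.41 in RVT, against 0.01 in RV and -0.17 in RVT over RVC. Over the 30 genes it was -0.63 in RVC and -0.64 in RVT, against -0.30 in RV and -0.32 in RVT over RVC. In the highest of 10 equal bins of all genes by GC content, the median log2 ratio was -1.84 in RVC and -2.13 in RVT. That bin ran from 57.8% to 73.8% GC, and the bin below it had medians of -0.40 and -0.64. FADS2, TM7SF2 and FASN, at 58.8% to 59.2%, lie near its lower edge, so their centred ratios rest on where the bins were cut. MVK, MVD, TM7SF2, FASN and FADS2 have between 58.8% and 66.4% GC, and STARD4, SC5D, INSIG1, HMGCS1, SQLE and MSMO1 between 28.4% and 31.8%. Of these 6, SC5D in RVC (-0.50) and SQLE in RVC and RVT (-0.39 and -0.31) had a log2 ratio to S below 0. These are values of all points in the same libraries, given as a description with no test, and the part of GC content in the results was not tested beyond centring.

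**Figure D3:**
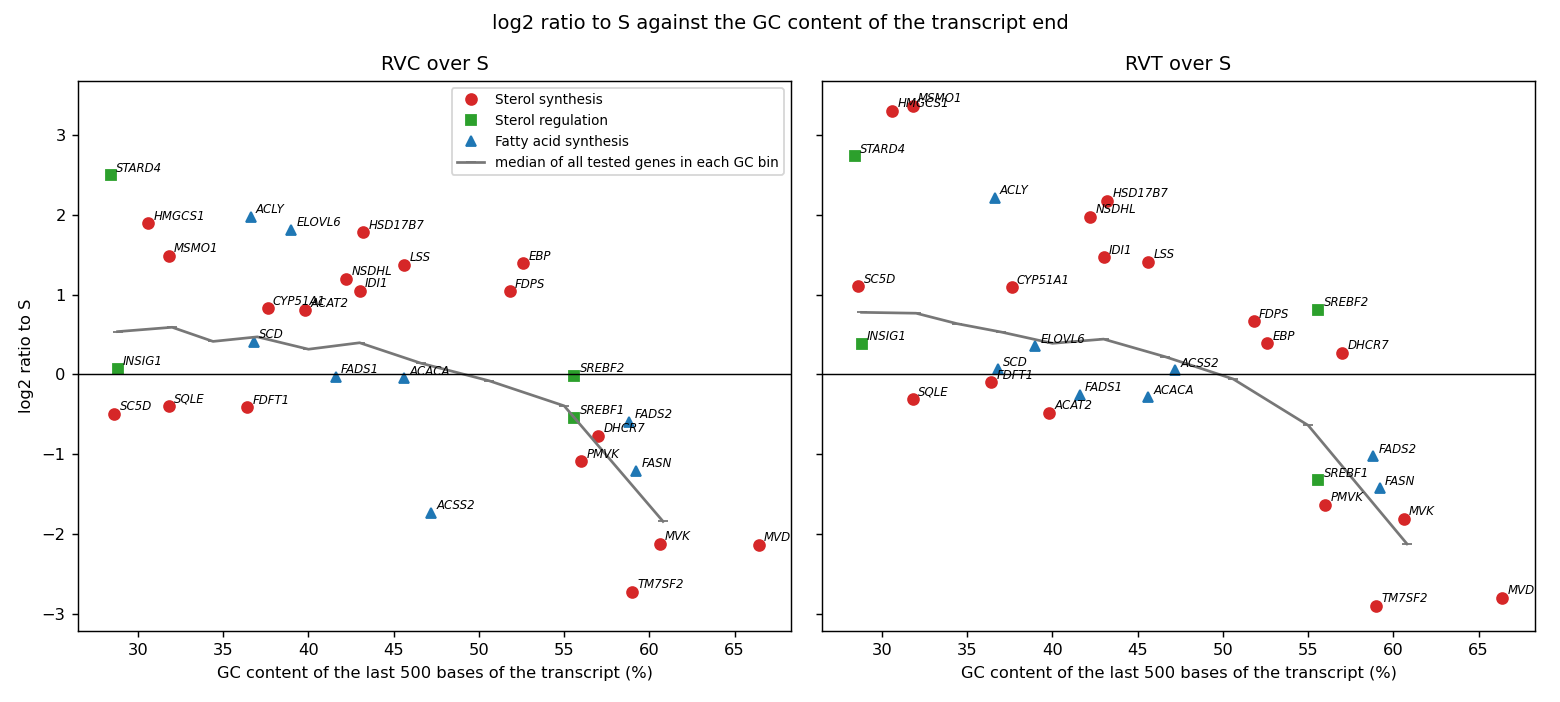
Log2 ratio to S (vertical axis) against GC content at the transcript end in percent (horizontal axis) for the 30 genes, RVC on the left and RVT on the right. Symbols give the role, and the grey line joins the medians of all genes tested in each of 10 bins by GC content, which fall to -1.84 and -2.13. FASN, HMGCS1, MSMO1 and ACLY lie above it in both panels.

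Each ratio was therefore also taken relative to the median of all genes tested in its GC bin. HMGCS1 then had 2.54 in RVT over S, MSMO1 2.60, STARD4 1.95, HSD17B7 1.73, ACLY 1.69 and NSDHL 1.53, on the log2 scale. In RVC over S, EBP then had 1.47, FDPS 1.12, ELOVL6 1.49 and ACSS2 -1.88. HMGCS1 had 1.30 in RVC. These differences thus remained past 2-fold after centring, but FDPS in RVC over S had 0.83 with TMM scaling, short of 2-fold. HSD17B7 and STARD4 were below 10 CPM in the mean. Of the other genes called in RVC over S, IDI1 (0.65), MSMO1 (0.89), NSDHL (0.80) and PMVK (-0.69) fell short of 2-fold, as did PMVK (-0.99) and SREBF1 (-0.69) in RVT over S. INSIG1, within 2-fold of S in both libraries, turned to -0.47 in RVC and -0.39 in RVT. The lower level of FASN turned to 0.64 in RVC over S and 0.70 in RVT over S, that of MVK in RVT to 0.32, and that of FADS2 to 1.25 in RVC and 1.10 in RVT. The sign of these ratios thus depended on the centring.

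RVT over RVC compares the trametinib with the cobimetinib combination in libraries with the same gene list. Of the 20 genes, 4 were at least 2-fold higher in RVT (HMGCS1, MSMO1, DHCR7 and ACSS2) and 3 at least 2-fold lower (ACAT2, EBP and ELOVL6), where 15.2% of all genes tested were higher and 11.9% lower. HMGCS1 and MSMO1 reached the minimum through RVT and ELOVL6 through RVC, and ACSS2 was just above it with a mean of 10.1 CPM, so these counts are no support for a difference. With the minimum set on RVT and RVC alone, 19 genes were counted, 2 higher (HMGCS1 and MSMO1) and 3 lower, where 16.8% and 11.7% of all genes so counted were. HMGCS1 still passed that minimum only through RVT and ELOVL6 only through RVC, so these counts are no support for a difference either. Of the 30 genes, 17 had a log2 ratio above 0, where 57.0% of all genes tested did, and this became 12 with TMM scaling and 13 after centring by GC content. The median was 0.16, which was also the median of all genes tested, and -0.11 after centring. The log2 ratio of MSMO1 was 1.88 (1.70 to 2.06), that of ACSS2 1.79 (1.47 to 2.11) and that of HMGCS1 1.41 (1.21 to 1.61). That of DHCR7 was 1.04 (0.78 to 1.30). ELOVL6 had -1.46 (-1.68 to -1.24), ACAT2 -1.29 (-1.42 to -1.15) and EBP a value between -1.09 and -0.91. All 7 stayed past 2-fold after centring by GC content. With TMM scaling DHCR7 had 0.74, short of 2-fold, and the others stayed past it. SC5D, below 10 CPM in the mean, had 1.60 (1.33 to 1.88). Each inhibitor was given at the same fraction of its own IC50, the concentration at which growth is inhibited by a set share, and concentrations are not compared here.

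**Figure D4:**
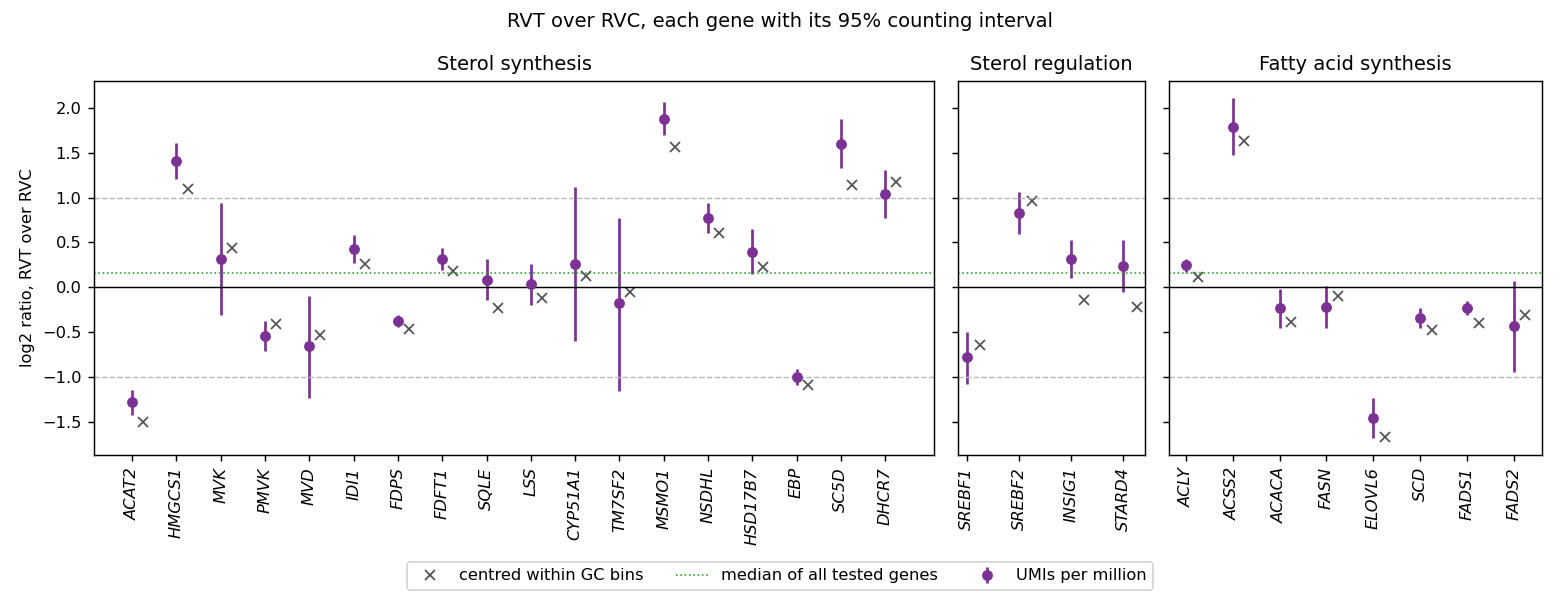
Log2 ratio of CPM in RVT over RVC (vertical axis) for the 30 genes in 3 panels by role, with 95% counting intervals. Crosses give the ratio centred within bins of transcript GC content, the dotted line the median of all genes tested (0.16) and the dashed lines a 2-fold difference. MSMO1, ACSS2, SC5D, HMGCS1 and DHCR7 lie above the upper dashed line, ELOVL6 and ACAT2 lie below the lower, and EBP lies on it.

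Levels per cell were compared after each cell was thinned to 1500 UMIs, which left 6334 cells in S and 4177 in RV, with 7231 in RVC and 7602 in RVT. A UMI of HMGCS1 was then found in 0.410% (0.268 to 0.601) of the cells in S and 0.622% (0.407 to 0.911) in RV, with 1.23% (0.990 to 1.51) in RVC and 3.89% (3.47 to 4.35) in RVT. Before thinning the shares were 2.32%, 4.19%, 4.04% and 6.91%. MSMO1 was found in 0.568%, 1.15%, 1.63% and 5.42% of the thinned cells in the same order. INSIG1 was found in 1.37% of S and 3.59% of RV cells, and ACLY in 3.79% of S and 16.9% of RVT cells. The thinned shares of these 4 genes kept the order of their levels in CPM, whereas the unthinned shares did not. For HMGCS1 and MSMO1 the unthinned share in RV was above that in RVC. For INSIG1 the unthinned share in S was above those in RVC and RVT, and for ACLY that in RVC was above that in RVT. No cell type lacking these genes was present to give a background from free RNA.

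The sum of the 18 sterol genes averaged 0.505 UMIs per thinned cell in S and 0.649 in RV, with 0.743 in RVC and 0.682 in RVT. Its variance over the mean, which is 1 for counting error alone, was 1.04 in S, RV and RVC and 1.17 in RVT, where the highest cell held 13 UMIs. In RVT the single gene with the largest variance over mean was HMGCS1, at 1.20, with up to 6 UMIs in a cell. Between cells, the sterol sum and the fatty acid sum had a Pearson r of -0.000671 in S and 0.0158 in RV, with 0.0147 in RVC and 0.0198 in RVT. Pairs were taken only among sterol genes with at least 10 CPM in the library itself. Of the 18 genes, S had 8 such genes, RV 9, RVC 10 and RVT 14. The median r over these pairs lay between -0.00573 and 0.00601. The highest single pair was HMGCS1 with IDI1 in RVT, at 0.0521, the highest of 91 pairs in that library. HMGCS1 reached 10 CPM only in RVT, so this pair was not read elsewhere. Over pairs of all genes with 10 CPM in RVT, the median r was 0.000135 and the 95th percentile 0.0214. The r of the sterol and fatty acid sums was 0.106 in RVT when cells were thinned to 3000 UMIs, which also drops the cells with fewer. Without thinning it was 0.107 in RV and 0.0775 in S. Its value thus differed between these settings and remained weak, and the cause was not tested.

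The genes outside the 30 whose thinned counts had the highest r with the sterol sum mostly differed between libraries, RVC and RVT sharing most. They were PPP1R12A, SEC14L1, ACTB, CALM2 and CD9 in S (at most 0.0580), HIST1H4C, H2AFZ, ACTB, STMN1 and CKS1B in RV (at most 0.110), TUBA1B, HSP90AA1, HSP90AB1, NPM1 and UBB in RVC (at most 0.135), and HSP90AA1, MYL6, UBB, TUBA1B and CALM2 in RVT (at most 0.132). The r of the sterol sum with the sum of G2/M genes was 0.0389 in S and 0.111 in RV, with 0.0712 in RVC and 0.0629 in RVT. Cells of 1 library share depth and capture, and these values are given as a description.

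Among genes next to the pathway, 6 further regulators, 9 genes of sterol handling, 6 of isoprenoid use and 14 of fatty acid metabolism were read. In RV over S, 0 of the 23 with 10 CPM were at least 2-fold apart, where 1.91% of all genes tested were higher and 1.25% lower. In RVC over S, 2 were higher and 5 lower, where 22.5% and 23.3% of all genes tested were. In RVT over S 10 were higher and 6 lower (28.7% and 24.3% of all genes), and in RVT over RVC 6 and 2 (15.2% and 11.9%). MYLIP, OSBP, ACSL4 and DHDDS reached the minimum only through RVT, where they are high, so the counts in RVT are a description and no support for a difference. INSIG2, a second retention protein of SREBPs, was at 5.23 CPM in S and 8.84 in RV, with 19.4 in RVC and 26.9 in RVT, at least 2-fold higher in both combinations. MYLIP, a ubiquitin ligase for lipoprotein receptors, was at 4.56, 4.63, 5.25 and 47.7, so that RVT alone stood high, with a log2 ratio to S of 3.39. OSBP, an exchanger of sterol at membrane contacts, was at 7.71, 6.21, 14.9 and 29.8. Its log2 ratio of RVT to RVC was 1.00, which became 0.87 after centring by GC content, short of 2-fold. TMEM97, a sterol-responsive membrane protein, was at 36.9, 31.1, 26.5 and 11.5. NR1H2, a nuclear receptor for oxysterols, was at 53.9, 57.8, 9.28 and 9.49, with log2 ratios to S of -2.54 in RVC and -2.50 in RVT, which became -0.69 and -0.38 after centring by GC content. MBTPS1 and MBTPS2, the proteases that cut SREBPs free, were at 37.1 and 26.8 in RVT, where MBTPS2 had a log2 ratio to S of 1.37 and MBTPS1 one to RVC of 1.04. These became 0.60 and 0.83 after centring by GC content, short of 2-fold. NPC2, a lysosomal cholesterol carrier, was at 210, 318, 203 and 420, with a log2 ratio of RVT to RVC of 1.05, or 0.83 centred. Of the 5 genes of sterol handling with 10 CPM, 3 were at least 2-fold higher (MYLIP, OSBP and SOAT1) and 1 lower (TMEM97) in RVT over S, where 28.7% and 24.3% of all genes tested were, and 0 either way in RVC over S. Of the 3, MYLIP and OSBP passed only through RVT, and SOAT1 had 0.52 in RVT over S after centring. ABCA1, an exporter of cholesterol named after its values were seen, was under 10 CPM in the mean, at 2.70 in S and 3.51 in RV, with 20.9 in RVC and 2.68 in RVT. RVC alone stood high, with a log2 ratio to S of 2.95, or 2.41 centred. When the minimum was set on RVC and S alone, 5 genes of sterol handling were counted. Of these 1, ABCA1, was at least 2-fold higher in RVC, where 23.0% of all genes so counted were. ABCA1 passed that minimum only through RVC, so this count is no support for a difference.

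MID1IP1, an activator of acetyl-CoA carboxylase, was at 34.9 CPM in S and 28.2 in RV, with 4.49 in RVC and 0.945 in RVT, with a log2 ratio of RVT to S of -5.20, which was -5.73 after centring by GC content. ACSL4, an acyl-CoA synthetase of polyunsaturated fatty acids, was at 9.24, 7.36, 9.43 and 44.3, and ME1, the cytosolic malic enzyme that yields NADPH, at 8.87, 9.99, 14.0 and 38.7. LPIN1, a phosphatidate phosphatase, was at 8.42, 10.0, 20.4 and 34.5. AACS, which makes acetoacetyl-CoA in the cytosol, was at 10.6, 9.61, 19.2 and 22.7, with a log2 ratio of RVT to S of 1.10, or 0.88 centred. Of the 10 genes of fatty acid metabolism with 10 CPM, 4 were at least 2-fold higher in RVT over S and 3 lower, where 28.7% and 24.3% of all genes were, and 1 was higher and 3 lower in RVC over S, where 22.5% and 23.3% were. ACSL4, among the 4, passed only through RVT. The lower ones included SLC25A1, the citrate carrier, and FADS3, whose log2 ratios in RVT over S turned to 0.53 and 0.15 after centring.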

How the data were processed

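The authors made 10x Genomics Chromium libraries and processed the reads with bcl2fastq 2.20.0.422 and Cell Ranger on GRCh38, per the labels and the submitters' processing notes. The count values were deposited as whole UMI counts for each gene in each barcode, 1 table per library, without normalization. The annotation and any filter before deposit are not given in the sources used here.

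Cells with at least 500 genes and at most 20% mitochondrial UMIs were kept, and the barcodes with the highest scrublet scores (scanpy 1.11.5) were removed at 0.8% per 1000 barcodes, because the caller itself marked 0 to 4 barcodes per library. This left between 25390117 and 58519152 UMIs per library. UMIs were summed by gene within each library and scaled to CPM, per 1000000 UMIs. A gene was called at a fold of 2 where the mean of the 4 libraries reached 10 CPM, and a count of 0 was taken at 3 UMIs in a ratio. Intervals are exact Poisson for levels, Clopper-Pearson for shares and conditional binomial for ratios. They cover counting error only. With 1 library per condition no p-value was computed.

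Ratios were also scaled with TMM factors (edgeR 4.0.16) and centred in 10 bins by GC content over the final 500 bases of each gene's longest GENCODE 29 transcript. Cells were thinned to 1500 UMIs with random seed 1 for shares and correlations. Python 3.11.15, numpy 2.4.6, pandas 2.3.3, scipy 1.17.1, R 4.3.3 and matplotlib 3.10.9 were used, with G2/M genes from Seurat 5.3.0. The scripts were tested on simulated data. All 30 genes, the genes next to the pathway that passed both 10 CPM and 2-fold, and the 5 best correlated genes per library are named. The genes and lists were chosen with earlier results of these data known. Alternatives were other scalings, cell filters, level filters, thinning depths and correlation measures.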

Additional observations from a re-analysis of the deposited data

How the results depend on the processing

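The number of genes at least 2-fold higher in RV over S, 2, was 1 when the minimum of 10 CPM was set on the compared pair of libraries and 0 when 50 CPM were required in the higher library, and the number lower, 0, was 1 without a filter on low genes. In RVC over S the 8 higher genes became 4 with TMM scaling of ratios and levels, 5 with TMM scaling of the ratios of the same genes, 5 after centring within GC bins and 3 with the minimum of 50, and the 3 lower genes became 1 after centring, 6 without the filter and 1 with the minimum of 50. In RVT over S the 5 higher genes became 3 with TMM scaling of ratios and levels (4 with the same genes counted). They became 8 with library sizes that leave out ribosomal protein and mitochondrial genes, 10 without the filter and 1 with the minimum of 50. The number of lower genes, 3, became 1 after centring, 7 without the filter and 1 with the minimum of 50. The 1 lower gene after centring was SQLE, which was not among the 3. In RVT over RVC the 4 higher genes became 2 with TMM scaling of ratios and levels (3 with the same genes counted), 2 with the minimum on the compared pair, 2 with at least 1000 genes per cell and 0 with the minimum of 50. With TMM scaling of levels HMGCS1 fell under the minimum of 10 CPM while its log2 ratio of RVT to S was 2.79. The TMM scaling with the same genes and the minimum on the compared pair were chosen after seeing the data. The other 67 of 88 recomputed counts stayed within 1.5 times of the reported ones. Centring turned the log2 ratio of FASN to 0.64 in RVC over S and 0.70 in RVT over S, that of MVK in RVT over S to 0.32 and that of FADS2 in RVT over S to 1.10. Of the 30 genes, no other ratio of at least 2-fold turned its sign under the alternatives run, while smaller ratios did, such as that of FADS2 in RVC over S to 1.25. The correlation between cells of the sterol and fatty acid sums was 0.0775 in S and 0.107 in RV without thinning and 0.106 in RVT with cells thinned to 3000 UMIs. Apart from the level filters, which change the genes counted, the cause was not tested. No paired analysis was possible because each condition has 1 library. Depth limits the genes below 10 CPM, such as CYP51A1, and the correlations between cells, in which most cells hold 0 or 1 UMI of a list.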

Other observations

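Isoprenoids leave the sterol pathway after farnesyl diphosphate for protein prenylation, ubiquinone and dolichol. Of 6 genes of these branches, 3 reached 10 CPM. FNTA, the shared alpha subunit of the farnesyl and geranylgeranyl transferases, was at 33.0 CPM in S and 28.9 in RV, with 12.8 in RVC and 16.4 in RVT, with log2 ratios to S of -1.36 in RVC and -1.01 in RVT. DHDDS, a subunit of the dolichol synthase, was at 7.83, 8.10, 10.3 and 18.2, with a log2 ratio of RVT to S of 1.21. GGPS1, the geranylgeranyl diphosphate synthase, was at 38.9, 36.5, 22.9 and 38.1 and had no 2-fold difference in CPM, but its log2 ratio of RVC to S was -1.35 after centring by GC content. The centred ratios of FNTA were -1.68 in RVC and -1.40 in RVT. For DHDDS the centred ratio of RVT to S was 1.27. DHDDS reached 10 CPM in the mean only through RVT. FDPS, the enzyme that makes the common substrate, had log2 ratios to S of 1.04 in RVC and 0.67 in RVT. With TMM scaling these were 0.83 and 0.15. Of the 6 branch genes, 3 had a log2 ratio to S above 0 and 3 below in RVC, and likewise in RVT. With TMM scaling 2 were above 0 in RVC and 1 in RVT. After centring by GC content 2 were above 0 in RVC and 2 in RVT. The 6 genes thus had no common direction in CPM, and the counts depended on the scaling and the centring.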
